A study of Mus musculus with 16 samples.

Results

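The genes described here encode feedback inhibitors of ERK signalling, 5 MAP kinase phosphatases (Dusp1, Dusp4, Dusp5, Dusp6 and Dusp7), 3 Sprouty proteins (Spry1, Spry2 and Spry4) and 2 Spred proteins (Spred1 and Spred2). They were chosen by name, and all 10 were found among the 16882 genes that the quadriceps and brown fat tables share. The names were selected on the deposited genotype fold changes and p-values of these same tables, in which Dusp6 had stood among the quadriceps genes of smallest p. Their genotype differences are therefore given as a description.

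In the ERK pathway a growth factor receptor activates Ras, which starts a relay of Raf, MEK and ERK kinases. Active ERK induces genes whose products switch it off again. Dual-specificity phosphatases of the DUSP family remove the activating phosphates from MAP kinases, whereas Sprouty and Spred proteins act further upstream, between the receptor, Ras and Raf. In muscle and brown fat the related p38 kinase is known for phosphorylating PGC-1alpha, the coactivator encoded by Ppargc1a, and Dusp1 is known for dephosphorylating p38.

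The study compared wild-type mice with littermates homozygous for a Ppargc1a allele labelled uORF-TAA. The labels name an upstream open reading frame (uORF) and a stop codon (TAA), and name no tissue-restricted promoter or Cre. All mice were C57BL/6 males of 10 weeks, housed at room temperature. Quadriceps and brown fat mRNA was sequenced with 4 libraries per genotype and tissue. Each tissue has a single table of the authors' genotype comparison, so the spread between mice is seen only through its standard errors, and no value per mouse can be given.

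Fold changes are uORF-TAA over wild type. This direction assumes that each table names its numerator first, and if that fails for a tissue, every direction in that tissue turns over. Deposited fold changes behave like shrunken estimates (errors of genes with a mean under 1 had a median of 0.0223 in quadriceps, against a largest error of 0.13) and may understate a difference. Estimated depth was 11.4 to 31.8 M counts (M, mega) per library in quadriceps and 11.0 to 17.8 M in brown fat. Fibre markers marked the muscle, with a sum over 8 genes of 177050 CPM in quadriceps and 8579 CPM in brown fat, where CPM is the mean normalized count per M counts of the table's sum. Brown adipocyte markers marked the fat, with 24730 CPM over 8 genes in brown fat against 540.0 CPM in quadriceps. Fibre markers were nevertheless abundant in brown fat, where Myh4 had a mean of 42699 normalized counts beside 47561 for Ucp1. The part of muscle fibre RNA in the brown fat levels given below was not tested. For Ppargc1a itself the authors' deposited table gave a quadriceps log2 fold change of 0.06 ± 0.13 (SE) and a brown fat value of 0.0016 ± 0.11 (SE).

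The first comparison was of genotypes within each tissue. In neither tissue did any of the 10 genes (0 of 10) pass the adjusted threshold of 0.05 by the DESeq2 test, where 0.0% of 17521 tested genes passed in quadriceps and 0.0863% of 9272 in brown fat. At 0.05 without adjustment the quadriceps table held 2 of the 10, Dusp6 and Dusp1, where 2.0% of all tested genes were past that p. Both were higher in uORF-TAA, a direction that 0.942% of tested genes took at that p. The brown fat table held 0 of the 10 at that p, against 2.07% of genes. The list was chosen with these comparisons known, so nothing is read from the shares. In brown fat 9 of the 10 have an adjusted p, and Dusp5 has none.

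Dusp6, a cytoplasmic phosphatase selective for ERK, had the largest fold change of the 10 in quadriceps. The authors' deposited table listed 0.52 ± 0.13 (SE) on the log2 scale there, a level 43.0% higher in uORF-TAA, with a mean of 163 normalized counts over the 8 libraries. The 95% interval on that scale ran from 0.27 to 0.76, and the deposited adjusted p was 0.141, from DESeq2. By p it stood at rank 6 of 17521 genes, and a log2 fold change of 0.59 at the same error would have passed the threshold. For brown fat the authors' deposited table listed Dusp6 at 0.17 ± 0.09 (SE), with a mean of 523 normalized counts and an interval from -0.02 to 0.36. The point estimate lay above 0 in both tissues, and the interval held 0 in brown fat only.

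Dusp1, a nuclear phosphatase that acts on p38 and JNK as well as ERK and is induced within minutes of many stimuli, came next. In quadriceps the authors' deposited table listed it at 0.38 ± 0.13 (SE) on the log2 scale, a level 30.0% higher, with a mean of 227 normalized counts and an interval from 0.12 to 0.64. It stood at rank 41 by p (unadjusted p = 0.00435) and had an adjusted p of 1.00 in the DESeq2 test. The brown fat value in the authors' deposited table was 0.16 ± 0.08 (SE), with a mean of 542 normalized counts and an interval from -0.0089 to 0.32. Dusp1 and Dusp6 thus had nearly the same fold change in brown fat, where their levels were 11.5% and 12.4% higher in uORF-TAA.

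The standard error of Dusp1 in brown fat was low for its level. Of the 200 genes nearest to it in mean count, 5.0% had a lower one, and their median was 0.10. Because the error of a shrunken estimate also falls in genes that are poorly determined, a low error is not by itself a sign of precision. In quadriceps the error of Dusp6 was close to that of its 200 neighbours, whose median was 0.13.

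The other phosphatases had quadriceps values below 0. Dusp4, an inducible nuclear phosphatase, stood lowest of the 10 in quadriceps at -0.18 ± 0.13 (SE) in the authors' deposited table, with an interval from -0.45 to 0.08. For brown fat the authors' deposited table listed Dusp4 at -0.0090 ± 0.11 (SE). Dusp7, a cytoplasmic ERK phosphatase close in sequence to Dusp6, was at -0.0012 ± 0.13 (SE) in quadriceps and -0.03 ± 0.11 (SE) in brown fat in the authors' deposited table. The quadriceps interval of Dusp7 ran from -0.25 to 0.24, and that of Dusp6 began at 0.27. Dusp5, a nuclear phosphatase selective for ERK, had mean normalized counts of only 3.95 and 3.34 in the 2 tissues. At that level the authors' deposited table gave -0.01 ± 0.08 (SE) in quadriceps and 0.10 ± 0.07 (SE) in brown fat, and both fold changes behave as strongly shrunken.

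**Figure D1:**
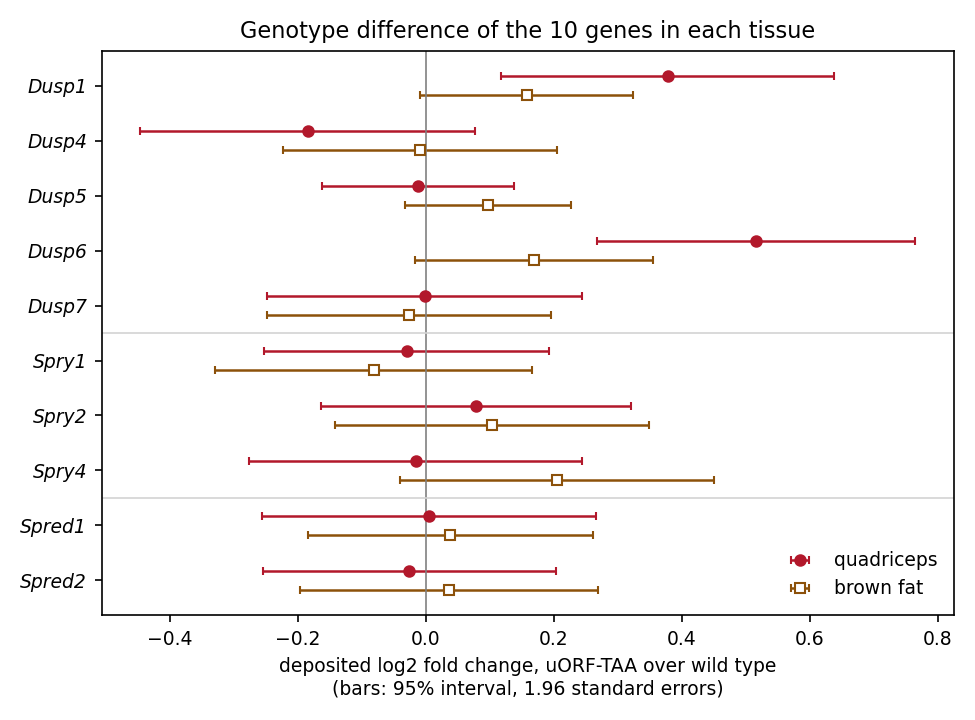
Deposited log2 fold change (x axis, uORF-TAA over wild type) of each of the 10 genes (y axis), with quadriceps as filled circles and brown fat as open squares, and bars for the 95% interval. In quadriceps the intervals of Dusp1 (0.12 to 0.64) and Dusp6 (0.27 to 0.76) lie above 0 and the other 8 hold 0, while in brown fat all 10 hold 0.

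Dusp1, Dusp6, Spry2 and Spred1 lay above 0 in both tissues, and of these Dusp6 and Dusp1 had the largest quadriceps fold changes. For Dusp1 and Dusp6 only, the 250 bases before the transcription start are shown, from RefSeq on GRCm38.p6. That build differs from the mm9 named for the reads, and only the letters are used. Capitals mark the cAMP response element TGACGTCA, to which CREB binds. The Dusp1 stretch is chr17:26508473-26508722 on the minus strand and the Dusp6 stretch is chr10:99262981-99263230 on the plus strand.
Dusp1: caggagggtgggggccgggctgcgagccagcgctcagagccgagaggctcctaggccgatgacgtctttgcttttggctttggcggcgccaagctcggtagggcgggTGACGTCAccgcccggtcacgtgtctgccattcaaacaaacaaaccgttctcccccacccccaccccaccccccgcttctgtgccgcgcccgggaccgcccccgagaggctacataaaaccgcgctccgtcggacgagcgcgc
Dusp6: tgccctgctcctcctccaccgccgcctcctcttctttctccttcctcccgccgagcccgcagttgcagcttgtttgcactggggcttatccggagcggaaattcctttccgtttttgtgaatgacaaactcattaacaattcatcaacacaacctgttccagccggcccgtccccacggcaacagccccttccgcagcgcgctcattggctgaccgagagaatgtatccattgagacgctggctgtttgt
The element began 143 bases before the Dusp1 start. It was found in 1 of the 8 promoters of these genes that the table matched, and in 1.55% of 32851 promoters of the same length. The ETS site CCGGAAGT and the AP-1 site TGANTCA, searched on both strands, were found in 0 of the 8, against 2.88% and 6.75% of all. The Dusp4 and Spry4 promoters were not analysed here.

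The Sprouty genes had quadriceps values near 0. Spry1, which helps to keep muscle stem cells quiescent, was listed at -0.03 ± 0.11 (SE) in quadriceps and -0.08 ± 0.13 (SE) in brown fat in the authors' deposited table. Spry2, whose product binds Grb2 and Cbl, was at 0.08 ± 0.12 (SE) and 0.10 ± 0.13 (SE) in the authors' deposited table. Spry4 was the member with the largest fold change in brown fat, at 0.20 ± 0.12 (SE) in the authors' deposited table, with an interval from -0.04 to 0.45, and stood at -0.02 ± 0.13 (SE) in quadriceps. Every Sprouty interval held 0 in both tissues.

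The Spred genes also lay near 0. Spred1, whose product brings neurofibromin to Ras, was at 0.0054 ± 0.13 (SE) in quadriceps and 0.04 ± 0.11 (SE) in brown fat in the authors' deposited table. The related Spred2 was at -0.03 ± 0.12 (SE) and 0.04 ± 0.12 (SE) in the authors' deposited table. The quadriceps interval of Spred1 ran from -0.26 to 0.27 on the shrunken scale, so a difference of the size of the Spry4 value in brown fat would lie within it.

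Over all 10 genes the median log2 fold change was -0.0064 in quadriceps and 0.07 in brown fat, beside medians of 0.0024 and 0.0015 over all genes tested. In quadriceps 4 of 10 were above 0, where 51.7% of all genes were, and in brown fat 7 of 10, where 51.2% were. The genes above 0 in both tissues were Dusp1, Dusp6, Spry2 and Spred1, and those below 0 in both were Dusp4, Dusp7 and Spry1. Without Dusp1 and Dusp6, the quadriceps values of the other 8 ranged from -0.18 to 0.08, and their brown fat values from -0.08 to 0.20.

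**Figure D2:**
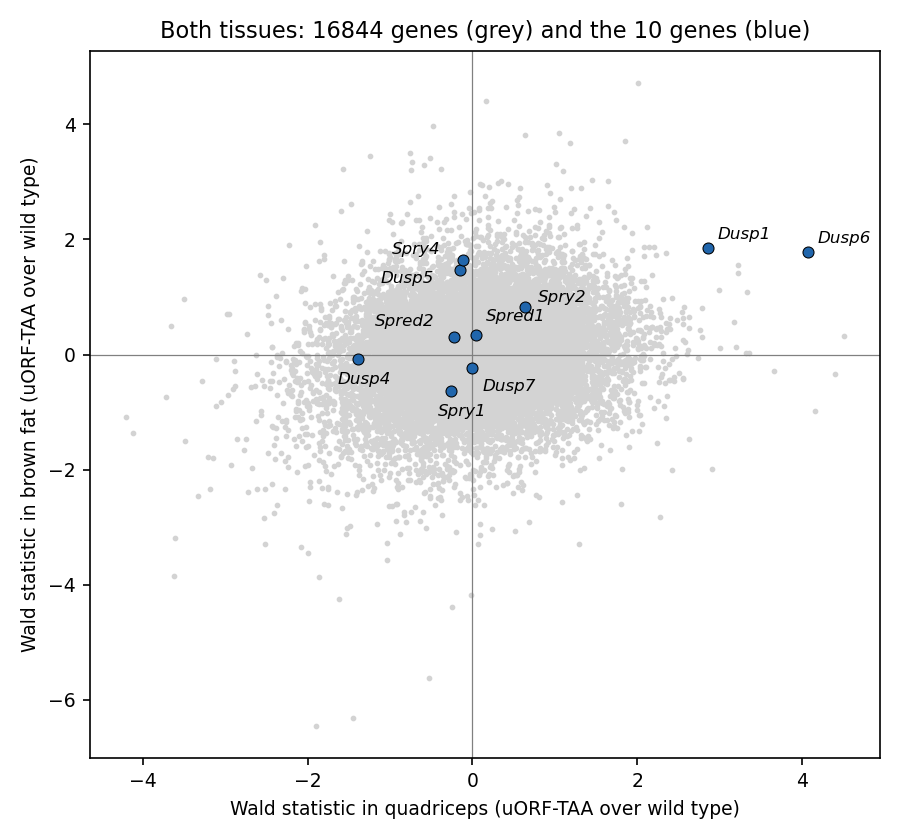
Wald statistic (log2 fold change over its standard error) in quadriceps (x axis) and brown fat (y axis) for 16844 genes with a p in both tables in grey, and for the 10 genes in blue with their names. Dusp6 (4.06 and 1.78) and Dusp1 (2.85 and 1.85) lie at the right above 0, and the other 8 lie within the cloud.

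The second comparison was whether a genotype difference itself differed between tissues. None of the 10 (0 of 10) passed in a two-sided normal test of the difference of the fold changes, in which 0.0% of 16844 genes passed an adjusted p of 0.05. Dusp6 had the smallest p of the 10, but its quadriceps value, on which it was chosen, enters the test, so its result is a description. Its log2 fold change was higher in quadriceps than in brown fat by 0.35 ± 0.16 (SE), with an interval from 0.04 to 0.66, an unadjusted p of 0.0287 and an adjusted p of 1.00 over all genes. At 0.05 without adjustment, 1 of the 10 and 1.16% of all genes were called. Both sets of fold changes behave as shrunken, so the test may miss differences, and 0 passing does not show that the tissues were alike. The difference for Dusp1 was 0.22 ± 0.16 (SE) and that for Spry4 -0.22 ± 0.18 (SE), and both intervals held 0. The test treats the tissues as independent, and the labels do not say whether they came from the same mice. With the opposite sign for the brown fat table, 6 of 16844 genes (0.0356%) were past the adjusted threshold by the same normal test. Dusp6 was 1 of them, with an adjusted p of 0.0431, but its quadriceps value, on which it was chosen, enters that test, so this is a description.

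The genes whose pair of Wald statistics lay nearest to that of Dusp6 were sought among the 9274 others whose mean count reached 50 in both tissues. The likeness rests on 2 comparisons only. The nearest 5 were Bche at a distance of 0.873, Dusp1 at 1.21, Prkg1 at 1.26, Fbxo21 at 1.71 and Fzd7 at 1.83. Bche encodes butyrylcholinesterase, Prkg1 the cGMP-dependent protein kinase and Fzd7 a receptor for Wnt ligands. The authors' deposited table listed Bche at 0.42 for quadriceps and 0.18 for brown fat, and Prkg1 at 0.40 and 0.14.

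The levels of the 10 genes, which the choice of genes did not use, differed between the tissues. They are given as CPM per kb, that is per kilobase of the longest coding transcript, over both genotypes. The tables were normalized separately and hold no spread per library, so levels and their order are a description with no test.

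Among the phosphatases Dusp7 was highest in quadriceps, at 8.46 CPM per kb, followed by Dusp1 at 5.42. Dusp6 and Dusp4 stood close together at 2.78 and 2.52 CPM per kb, and Dusp5 was at 0.0760. Dusp7 made up 43.9% of the summed level of these 5 in quadriceps. In brown fat Dusp4 was highest, at 33.7 CPM per kb, and made up 43.1% of the sum. Dusp1 at 21.3, Dusp6 at 14.6 and Dusp7 at 8.60 CPM per kb followed, and Dusp5 was again lowest at 0.105. The order thus differed between the tissues in the place of Dusp4 and Dusp7, while Dusp1 stayed above Dusp6 in both.

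Spry1 was the highest Sprouty gene in both tissues, at 4.59 CPM per kb in quadriceps and 18.8 in brown fat. Spry2 was at 3.34 and 5.51 CPM per kb, and Spry4 was lowest at 0.496 and 3.96. Spred1 stood above Spred2 in both tissues, at 2.36 against 1.58 CPM per kb in quadriceps and 6.48 against 5.21 in brown fat. The order within each of these families was the same in muscle and fat.

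As CPM, all 10 genes were higher in brown fat than in quadriceps, by a median ratio of 3.61, but Dusp5, Dusp7 and Spry2 were lower (ratios 0.737, 0.541 and 0.878) once the median gene was set to a ratio of 1. Of the 9282 genes whose mean reached 50 in both tables, 74.6% had a CPM ratio above 1, with a median of 1.88. The 10 most abundant genes, led by Myh4, took 28.1% of all counts in quadriceps and 9.27% in brown fat. The rank of a ratio does not depend on that scaling. Dusp4 had a ratio of 13.4 before and 7.13 after rescaling and stood above 97.3% of genes. Spry4 had 7.99 and 4.25 and stood above 93.1%, and Dusp6 had 5.25 and 2.80 and stood above 86.7%. Spry4, with a quadriceps mean count of 49.6, lay just under 50 and is not itself among the 9282 genes. Summed marker levels of other cells also differed between the tissues. Endothelial markers had a sum over 7 genes of 1384 CPM in brown fat and 225.5 CPM in quadriceps, a ratio of 6.14 before and 3.27 after rescaling, and peripheral glia markers had ratios of 6.41 and 3.41. The ratios were 1.99 and 1.06 for macrophage, 1.91 and 1.02 for mural cell and 1.18 and 0.629 for fibroblast markers, and 0.0921 and 0.0490 for muscle stem cell markers. The part of these cells in the tissue difference of the 10 genes was not tested, and in whole tissue more cells of a type and more RNA per cell cannot be told apart.

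**Figure D3:**
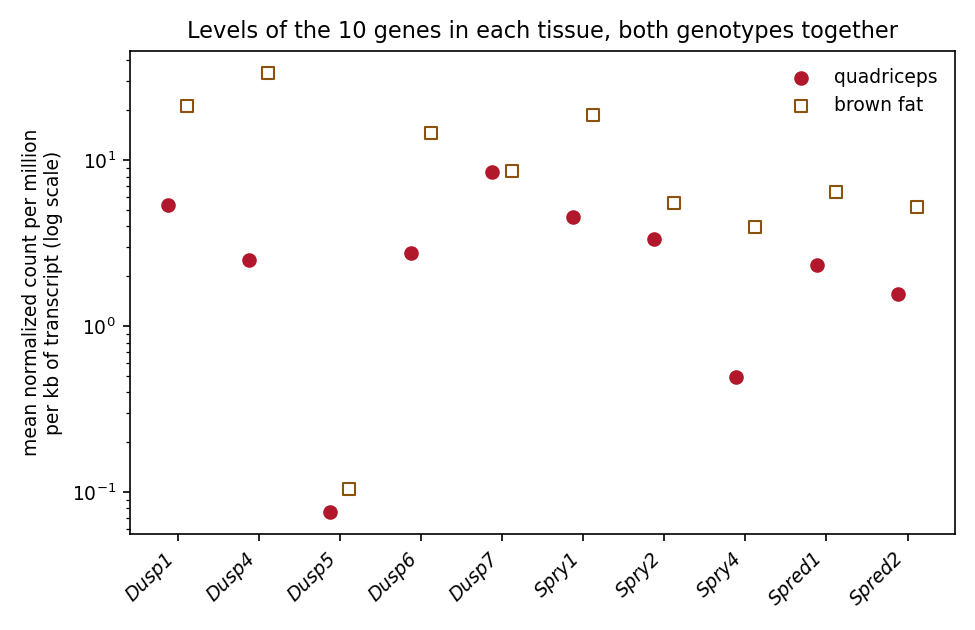
Mean normalized count as CPM per kilobase of transcript (y axis, log scale) of the 10 genes (x axis) in quadriceps (filled circles) and brown fat (open squares), over both genotypes, with no spread per library to show. Dusp4 goes from 2.52 in quadriceps to 33.7 in brown fat, while Dusp7 is at 8.46 and 8.60, a ratio that falls to 0.541 with the median gene set to 1.

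The rest of the pathway was described from lists written with earlier results of these data known. Of 10 growth factor ligand genes measured in quadriceps, 0 passed the adjusted threshold and 8 were above 0. Vegfa, which acts on endothelial receptors, had 0.28 ± 0.12 (SE) and Egf 0.21 ± 0.11 (SE) in the authors' deposited table for quadriceps, while Fgf1 was at 0.16. In brown fat 5 of 11 ligand genes were above 0. Of these 11, only 5 have an adjusted p there, and 0 passed. The metabolic growth factor gene Igf1 was at 0.16 ± 0.13 (SE) in brown fat in the authors' deposited table. Of 15 receptor tyrosine kinase genes, 10 were below 0 in each tissue and 0 passed, with medians of -0.04 in both. An adjusted p is given for 13 of the 15 in brown fat. Fgfr1, the highest of the FGF receptor genes by level in both tissues, was at -0.16 ± 0.13 (SE) in quadriceps in the authors' deposited table. Met was at 0.15 in quadriceps and Fgfr2 at -0.18 in brown fat in the authors' deposited table. Flt1, a decoy-like VEGF receptor, was at -0.17 in brown fat and Igf1r also at -0.17 in the authors' deposited table.

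The relay from adaptors to ERK had medians near 0. Of 22 Ras-ERK cascade genes, 13 were above 0 in quadriceps and 15 in brown fat, with medians of 0.02 and 0.03, and 0 passed in either tissue. The ERK gene Mapk3 was at -0.04 in quadriceps in the authors' deposited table. The Ras activator gene Sos1 was at 0.17 ± 0.12 (SE) there, and the adaptor gene Gab1 was at -0.20 ± 0.12 (SE) in brown fat in the authors' deposited table. Ksr1, a scaffold of the relay, was at 0.15 in quadriceps in the authors' deposited table. Of 10 JNK and p38 pathway kinases 0 passed, and values lay between -0.12 and 0.07 in muscle and between -0.09 and 0.07 in fat. An adjusted p is given for 7 of the 10 in brown fat.

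Other inhibitors were mixed. The remaining MAP kinase phosphatases (Dusp2, Dusp8, Dusp9, Dusp10 and Dusp16) were above 0 in 4 of 5 cases in each tissue, and 0 passed. An adjusted p is given for 3 of the 5 in brown fat. The largest fold change of the 5 was that of Dusp10, a phosphatase of p38 and JNK, at 0.17 ± 0.11 (SE) in quadriceps in the authors' deposited table. Among 6 other measured feedback inhibitors, Errfi1, an inhibitor of EGF receptors induced by ERK, was at -0.24 ± 0.12 (SE) in quadriceps and -0.20 ± 0.13 (SE) in brown fat in the authors' deposited table. The ubiquitin ligase gene Cblb was the 1 gene of these lists that passed, in brown fat, where the authors' deposited table listed it at -0.49 ± 0.12 (SE). Of the 6, only 4 have an adjusted p in brown fat, and Spred3 and Cbl have none there. Lrig1, which lowers receptor levels, was at -0.13 and -0.09 in the authors' deposited table.

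Transcripts that ERK is known to induce were listed as a readout of the pathway. In quadriceps 8 of 16 were above 0, with a median of 0.01 and 0 past the adjusted threshold. Etv5 and Etv4, ETS factors that follow FGF signalling, were at 0.11 and 0.03 in quadriceps in the authors' deposited table, and Egr1 at 0.03 and Fos at 0.11. Junb was at -0.21 ± 0.13 (SE) and Fosb at 0.15 ± 0.08 (SE) there in the authors' deposited table, the latter at a mean count of 3.12. In brown fat 14 of 16 were above 0, where 51.2% of all genes were, with a median of 0.08. Only 3 of the 16 have an adjusted p in brown fat, and 0 of those 3 passed. The authors' deposited table gave Ier2 0.15 ± 0.11 (SE) and Etv1 -0.19 ± 0.12 (SE) there.

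Fos, Junb and Egr1 have no p-value in brown fat, as do 27 of 18000 genes in that table. DESeq2 withholds a p where a single library stands far from the others. Their fold changes were 0.09, 0.04 and 0.07 in the authors' deposited table for brown fat. Their standard errors were 0.05, 0.08 and 0.05, and at most 0.5% of the 200 genes nearest in mean count had a lower one. Dusp1 belongs to the same class of immediate early genes, has a p in brown fat and also stood low in error for its level. Whether a library that stands apart in those genes carries the Dusp1 value was not tested.

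**Figure D4:**
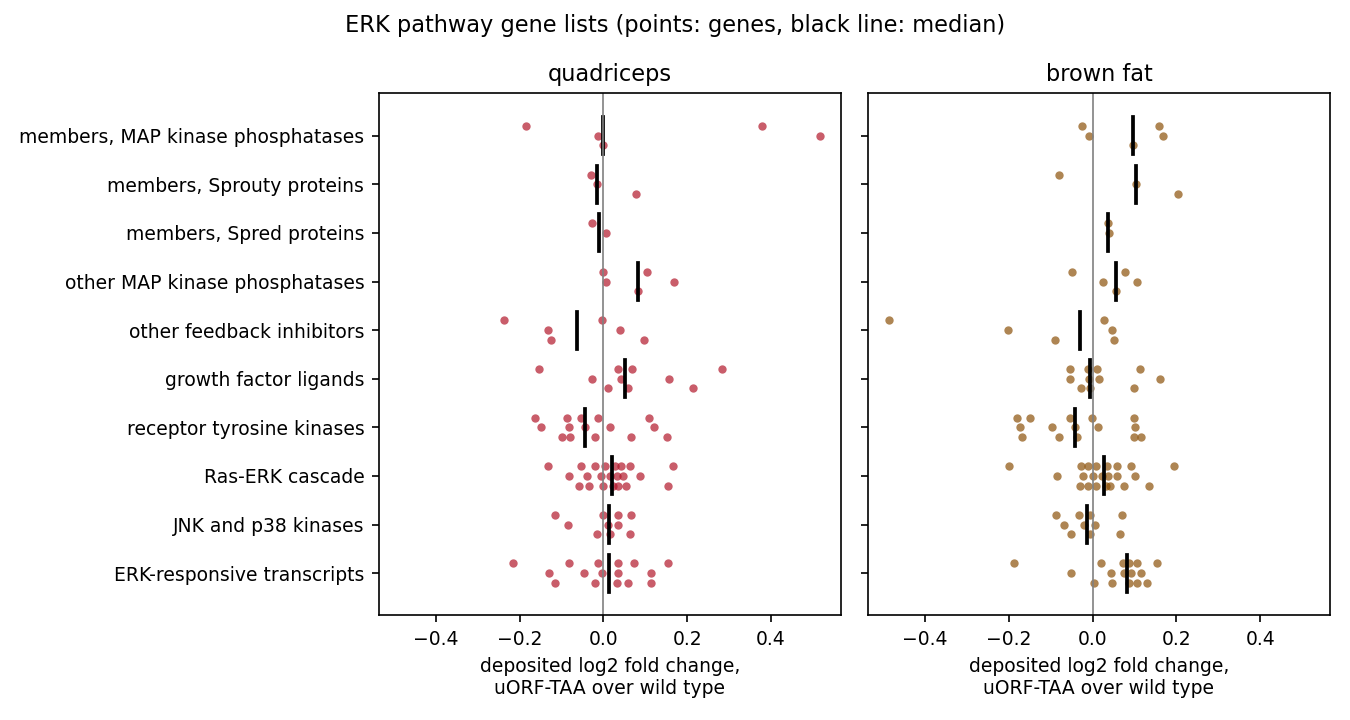
Deposited log2 fold changes (x axis, uORF-TAA over wild type) of the genes of 10 ERK pathway lists (rows), in quadriceps on the left and brown fat on the right, with points for genes and black lines for list medians. Dusp6 at 0.52 and Dusp1 at 0.38 lie to the right of every other gene shown for quadriceps, and Cblb at -0.49 is the lowest point in brown fat.

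Markers of other cells were set beside these values. In quadriceps 3 of 7 endothelial markers were above 0 with a median of -0.0056, and mural cell markers, genes of smooth muscle and pericytes, had a median of -0.17 with 4 of 6 below 0. Of these, 3 were lower in uORF-TAA at an unadjusted p of 0.05 by the DESeq2 test, and 0 of 6 passed after adjustment. Over all genes tested in quadriceps, 185 of 17521 were lower at that p. The 3 markers were the contractile genes Myh11 at -0.35 ± 0.10 (SE), Tagln at -0.32 ± 0.13 (SE) and Acta2 at -0.29 ± 0.13 (SE) in the authors' deposited table for quadriceps. The 2 mural markers above 0 there were Cspg4 at 0.20 ± 0.13 (SE) and Rgs5 at 0.0060 ± 0.11 (SE). Muscle stem cell markers were above 0 in 4 of 5 cases in quadriceps, led by Myod1 at 0.61 ± 0.13 (SE) in the authors' deposited table, while Pax7 was at 0.09 and Myf5 at 0.0091. The part of the mural and stem cell markers in the Dusp6 and Dusp1 values was not tested. In brown fat 5 of 7 endothelial markers were above 0 with a median of 0.01. Cldn5, a tight junction gene of endothelium, was the highest of the 7 in both tissues. The authors' deposited table listed it at 0.27 ± 0.13 (SE) in brown fat and 0.26 ± 0.13 (SE) in quadriceps. The lowest of the 7 were Tek at -0.04 ± 0.12 (SE) in brown fat and Emcn at -0.17 ± 0.11 (SE) in quadriceps. Macrophage markers were above 0 in 2 of 5 cases in each tissue, fibroblast markers in 3 of 5 in quadriceps and 4 of 5 in brown fat, and peripheral glia markers in 0 of 5 and 1 of 5. Mural cell markers in brown fat were above 0 in 5 of 6 cases.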

How the data were processed

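Stranded mRNA libraries of both tissues were read from one end, per the labels' protocols. STAR 2.5.1b, mm9 and DESeq2 1.10.1 are named, with no role, per the submitters' processing notes. The annotation and the program that counted reads are left unnamed by the sources used here. Per the file headers the deposited tables hold a mean normalized count, treated as a signal, a log2 fold change with its standard error, a Wald statistic (a score), a p-value and an adjusted p-value. Recomputing the last 3 returned the deposited values. No header states the numerator or the shrinkage.

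The brown fat sign was turned. Adjusted p-values were used as deposited, with Benjamini-Hochberg adjustment. Brown fat has them for 9272 of 17973 genes, those with a mean of at least 105.6. Differences between tissues were tested over 16844 genes. Size factors came from genes with a single read. Transcript lengths are from GENCODE M21, and promoters from RefSeq. Adgre1 was read under its older symbol Emr1. Spry3 had no row for either tissue and Fgf21 had none for quadriceps, so they were not analysed there. Intervals are 1.96 standard errors. Python 3.11.15, pandas 2.3.3 and scipy 1.17.1 were used.

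The genes, lists, named-gene rule and tests were chosen with earlier results of these data known. The rule took the 10 genes, Ppargc1a, up to 3 genes of smallest p per list and tissue, genes past the threshold, cell markers and the 5 genes nearest to Dusp6. Egr1, Fos, Etv4, Etv5, Mapk3, Mapk12, Dusp3, Dusp13, Dusp16 and Dusp27 are outside that rule, picked with their values already seen.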

Additional observations from a re-analysis of the deposited data

How the results depend on the processing

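The count of the 10 genes past the threshold remained 0 in both tissues at adjusted p-values of 0.10 and 0.01, with genes under a mean of 10 or 50 left out, and adjusted over every gene with a p. At 0.05 without adjustment it was 2 in quadriceps and 0 in brown fat, and 1 for the tissue difference. The adjusted p of Dusp6 in quadriceps was 0.0978 and 0.0949 with the filters of 10 and 50. With the opposite sign for the brown fat table, 1 of the 10, Dusp6, differed between tissues, among 6 of 16844 genes that did. The quadriceps value on which Dusp6 was chosen enters the tissue test under either sign. Over those of the 10 whose mean reached 200, the median log2 fold change was 0.0021 in quadriceps (4 genes), opposite in sign to that of all 10, and 0.037 in brown fat (8 genes), since fewer genes enter. With the median gene set to a ratio of 1, the median level ratio was 1.92 and those of Dusp5, Dusp7 and Spry2 turned below 1, at 0.737, 0.541 and 0.878. No paired analysis was possible because the tables hold no values per library, and for the same reason no library could be left out. Depth limits Dusp5 most, with mean counts under 4.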

Other observations

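Atypical dual-specificity phosphatases, which lack the MAP kinase binding domain, were measured for 13 genes in both tissues. In quadriceps 6 were above 0 and in brown fat 5, and 0 passed the adjusted threshold of 0.05 (DESeq2). In brown fat 8 of the 13 have an adjusted p, and Dusp15 and Dusp26 have none there. Dusp11, an RNA phosphatase, had the smallest p in quadriceps. The authors' deposited table listed it at -0.20 ± 0.09 (SE) in quadriceps and -0.04 in brown fat. Dusp15 was at -0.13 in quadriceps and -0.18 in brown fat, and Dusp26 at -0.19 and -0.14, in the authors' deposited table. By level, Dusp13 and Dusp27 were muscle genes, at 49.0 and 21.2 CPM per kb in quadriceps against 5.18 and 1.76 in brown fat. Dusp3, at 33.0 and 46.8 CPM per kb, was higher than every one of the 5 ERK phosphatases in both tissues.

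Dusp8 and Dusp16, phosphatases of p38 and JNK, had higher levels in quadriceps on this scale. Dusp8 was at 6.44 CPM per kb in quadriceps and 1.75 in brown fat, and Dusp16 at 7.43 and 5.06, while Dusp10 was at 12.5 and 13.3. The p38 kinase gene Mapk12 was at 47.6 CPM per kb in quadriceps and 17.4 in brown fat. These levels carry no spread per library and were not tested. The part of fibre RNA in the brown fat levels of Dusp13, Dusp27, Dusp8, Dusp16 and Mapk12 was not tested either.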
